A study of Mus musculus with 12 samples.

Results

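The transcriptome of mouse mesenchymal stem cells (MSCs) that had shared a culture with untreated RAW264.7 macrophages, here MSC+RAW-TW, was set against that of MSCs grown alone, here MSC. The comparison used 4 of the 12 RNA-seq libraries of the series, 2 for each group, chosen by the name of their column in the deposited count table, and covered all 55487 genes counted. Per the labels, the MSCs of both groups came from the limbs of C57BL/6 mice aged 8 weeks, and the treatment was given as control for MSC and as co-culture with RAW cells for MSC+RAW-TW. No genetic change was named for any group. RAW264.7 is an established mouse macrophage line, and TW stands for the Transwell inserts by which the study kept the cell types apart, so the RNA was meant to be that of the MSCs. A further 2 libraries, MSC+RAW-LPS-TW, came from MSCs cultured with RAW cells that had been stimulated with lipopolysaccharide, and they served here to estimate the spread. The labels give no number of mice behind a library and do not say whether libraries of a group came from separate cultures, so the p-values measure the spread between these libraries, which may be technical.

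The totals ran from 29823130 to 45367105 counts per library. The 2 MSC+RAW-TW libraries were near copies of each other. Across genes with 10000 or more counts in the pair, the squared difference between these libraries was a median 3.67 times what independent sampling of counts gives, compared with 56.5 times for the MSC pair and 186 times for the MSC+RAW-LPS-TW pair. Their counts were therefore summed and entered as 1 sample, beside 2 MSC and 2 MSC+RAW-LPS-TW samples. The spread came from the other groups, and the lone MSC+RAW-TW sample was assumed to vary as they did. Levels below are in CPM, a gene's counts in proportion to the TMM-scaled total of its library, given for MSC 1 and MSC 2 and then for MSC+RAW-TW 1 and MSC+RAW-TW 2. A fold change is MSC+RAW-TW over MSC on the log2 scale, with its standard error (SE). A gene was called, and is said to rise or fall, where this change was at least 1 in size and the adjusted p of edgeR's quasi-likelihood test was at most 0.05.

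MSCs, also named marrow stromal cells, can form bone, fat and cartilage, and in the marrow they lie next to macrophages. Macrophages signal to them through cytokines, chemokines and vesicles, and can hand over mitochondria. Respiration in any of these cells rests on protein complexes whose subunits come from the nuclear genome and, for a few, from mitochondrial DNA. The study was concerned with how macrophages act on the metabolism of MSCs.

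The label of the MSC libraries was checked against marker genes first. All 20 genes of a macrophage identity list lay at 5 CPM or more on average, in libraries labelled MSC as in the others. Their summed level was 32394 and 32706 CPM in the MSC libraries and 43268 and 42835 CPM in the MSC+RAW-TW libraries. The 20 genes of a mesenchymal stromal list summed to 4125 and 4157 CPM in MSC and to 3844 and 3834 CPM in MSC+RAW-TW. Per kilobase of exon, the median level in MSC was 260 CPM for the macrophage list and 7.60 CPM for the stromal list. The macrophage markers thus went against the label of these libraries, and the names MSC and MSC+RAW-TW below follow the labels only. Lyz2, which encodes the lysozyme of myeloid cells, stood at 21597 and 21728 CPM in MSC and at 26635 and 26346 CPM in MSC+RAW-TW. Col1a1, a chain of the collagen made by stromal cells, stood at 453 and 460 CPM and at 469 and 461 CPM. Markers of lymphocytes summed to between 2.8 and 3.7 CPM in these libraries, and those of erythroid cells to between 12.2 and 32.0 CPM. In bulk RNA, fewer cells of a type and less RNA per cell cannot be told apart.

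**Figure D1:**
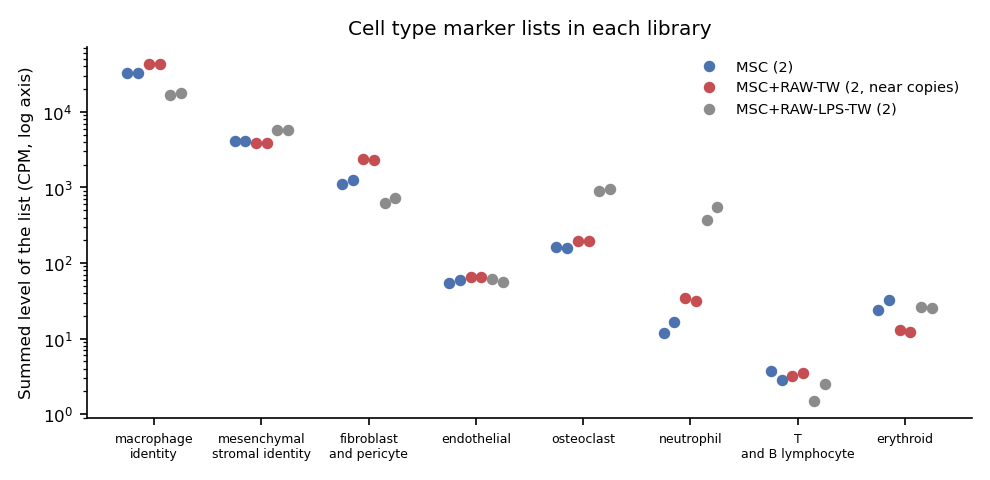
Summed level of 8 cell type marker lists (CPM, log axis) in each of the 6 libraries, 1 point per library. The macrophage list lies at 32394 and 32706 CPM in the MSC libraries and at 43268 and 42835 CPM in the MSC+RAW-TW libraries, while the stromal list lies between 3834 and 4157 CPM in these libraries.

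Of 20499 genes tested, 3360 (16.4%) were called. There were 1394 that rose (6.80% of those tested) and 1966 that fell (9.59%). Rises and falls were spread unequally over the levels. Of the 3701 genes at 50 CPM and above, 575 rose and 122 fell, and of the 6619 genes from 5 to 50 CPM, 557 rose and 645 fell. Of the 3209 genes from 1 to 5 CPM, 186 rose and 432 fell, and of the 6970 genes under 1 CPM, 76 rose and 767 fell. Over all genes tested the median change was -0.13. The 2 MSC+RAW-TW libraries lay on one side of both MSC libraries in 16070 of the genes tested (78.4%) and in 3357 of the 3360 called, so that a lack of overlap was the rule and sets no single gene apart. The calls of a list below are to be read against the 6.80% of all genes that rose and the 9.59% that fell. These shares include the genes under 1 CPM, where rises were few, while most members of many lists lay at 5 CPM or more. For such lists the counts given above for genes from 5 to 50 CPM and at 50 CPM and above are the nearer yardstick.

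The fold changes followed the base composition and the length of the transcripts. Over 10314 genes of at least 5 CPM, Spearman's rho between the change and the GC content was 0.55, and between the change and the exon length -0.39, as a description across genes of the same libraries. Of 5 equal groups by GC, the lowest had a median change of -0.53, with 38 rises and 453 falls, and the highest had a median change of 0.63, with 532 rises and 8 falls. Called genes that rose had a median exon length of 2377 bases and those that fell 5726 bases. Within a group, the same rho with GC was -0.21 for MSC 2 against MSC 1, -0.02 within the MSC+RAW-TW pair and 0.27 within the MSC+RAW-LPS-TW pair. With length it was -0.08 within the MSC pair, -0.03 within the MSC+RAW-TW pair and -0.38 within the MSC+RAW-LPS-TW pair. The MSC and MSC+RAW-LPS-TW pairs thus differed along GC as well, though less than the groups compared, and along length the MSC+RAW-LPS-TW pair differed about as much as the groups did. For MSC+RAW-LPS-TW against MSC, rho was -0.04 with GC and 0.02 with length. What part the preparation of the libraries had in the trend of MSC+RAW-TW against MSC was not tested. The change after removal of the trends on length and GC is given below beside the main results. With both trends removed, 1093 genes rose (5.33% of those tested) and 1071 fell (5.22%), and 1592 of the 3360 calls held in the same direction. The removal was incomplete for short genes. Of 5 equal groups by exon length, the shortest (57 to 2506 bases) had 606 rises and 115 falls among 2063 genes before the removal. It kept a median change of 0.39 after it, against 0.04 to 0.13 in the other groups.

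**Figure D2:**
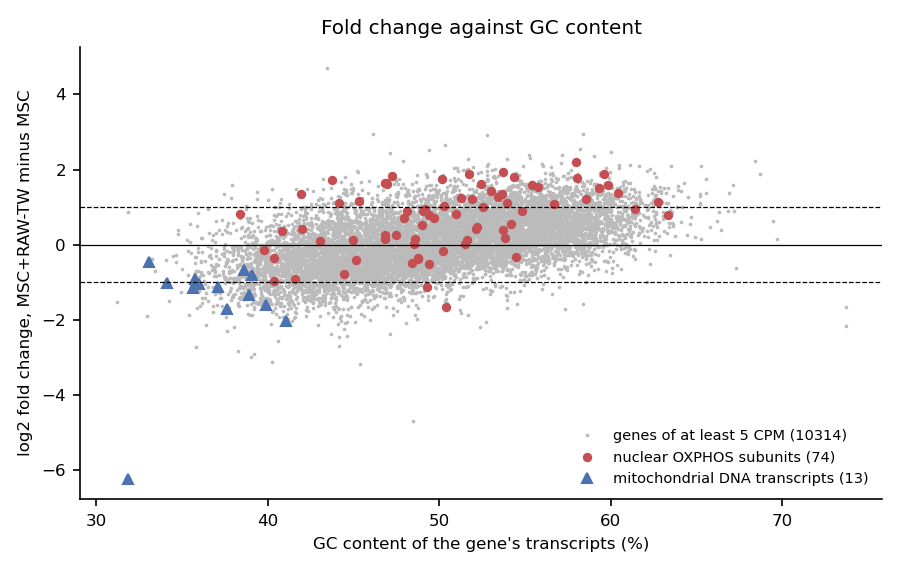
Log2 fold change of MSC+RAW-TW over MSC (vertical axis) against the GC content of a gene's longest transcript in percent (horizontal axis), for genes of at least 5 CPM and for every member of the respiratory chain lists, with dashed lines at the limits of -1 and 1. The cloud climbs from left to right (rho 0.55), and the mitochondrial DNA transcripts sit at its GC-poor end.

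Among named genes of at least 5 CPM whose groups did not overlap, the largest rise was that of Znhit1, a subunit of the complex that places the histone variant H2A.Z. It went from 55.0 and 62.7 CPM to 319 and 322 CPM, a log2 fold change of 2.47 ± 0.25 (SE, adjusted p = 8.2e-05). Ptpn18, a tyrosine phosphatase, went from 56.8 and 68.6 CPM to 335 and 331 CPM, a change of 2.44 ± 0.23, and it lay at 6.30 and 10.5 CPM in MSC+RAW-LPS-TW. Ccl5, a chemokine for T cells and monocytes, went from 220 and 226 CPM to 971 and 968 CPM (2.15 ± 0.22). Mif, the macrophage migration inhibitory factor, went from 282 and 256 CPM to 1129 and 1143 CPM (2.1 ± 0.19). The mitochondrial genes Ndufa11 (2.21) and Etfb (2.17) were also among the 12 largest rises. Etfb encodes a subunit of the flavoprotein that takes electrons from fatty acid oxidation, and stood at 38.7 and 39.8 CPM in MSC and at 170 and 176 CPM in MSC+RAW-TW. The others were Scand1 (2.23), Phpt1 (2.30), the small nucleolar host transcript Snhg9 (2.35) and the ribosomal pseudogenes Rpl28-ps3 (2.38), Rps25-ps1 (2.23) and Rpl36-ps2 (2.13). Rps25-ps1 stood at 8.67 and 13.0 CPM in MSC and differed within the near-copy pair, at 32.8 and 69.4 CPM, so that its change was 2.69 without MSC+RAW-TW 1 and 1.60 without MSC+RAW-TW 2, with a call in both cases. Reads of such pseudogenes cannot be told with certainty from those of their parent genes. With DESeq2 the calls of Phpt1 (adjusted p = 0.17) and Snhg9 (adjusted p = 0.11) were lost.

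The largest fall was that of Pik3c2a, a lipid kinase of vesicle traffic. It went from 14.8 and 17.2 CPM to 2.17 and 1.67 CPM, a log2 fold change of -3.01 ± 0.34 (SE, adjusted p = 0.00011). Fpr2, a receptor for formylated peptides on myeloid cells, went from 17.1 and 21.9 CPM to 2.81 and 3.12 CPM (-2.69 ± 0.25). It stood at 51.5 and 50.7 CPM in MSC+RAW-LPS-TW, so that MSC+RAW-TW held the lowest level of the groups. Ms4a4a, a surface protein of macrophages, went from 56.8 and 49.1 CPM to 9.60 and 9.32 CPM (-2.46 ± 0.35). The remaining falls of this kind were those of Zup1 (-2.91), Lipo3 (-2.83), mt-Rnr1 (-2.73), Zfyve16 (-2.56), Nufip1 (-2.45), Pramef8 (-2.39), Togaram1 (-2.39), Gpcpd1 (-2.32) and Cldn12 (-2.25). Of the 24 genes named in these paragraphs, Pik3c2a shrank from -3.01 to -1.93 with the trends on GC and length removed, Znhit1 from 2.47 to 1.76 and Ccl5 from 2.15 to 2.0. None of the 24 lost its call under that setting.

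Of the 74 nuclear-encoded subunits of the respiratory chain tested, 31 rose (41.9%, against 6.80% of all genes), 2 fell and 41 were not called, with a median change of 0.84 against -0.13 over all genes. Their summed level went from 10964 and 11372 CPM in MSC to 21254 and 21157 CPM in MSC+RAW-TW. With the trends on GC and length removed, 28 rose and 2 fell, the median was 0.76, and 26 of the calls held. The median exon length of these subunits was 1737 bases, within the shortest group of genes by length, which kept a median of 0.39 after removal. In MSC+RAW-LPS-TW the sum was 8713 and 11852 CPM, on either side of the MSC libraries.

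Complex I, which takes electrons from NADH, gave 17 rises and no fall among 37 subunits. Its accessory subunit Ndufa11 went from 37.9 and 37.1 CPM to 173 and 168 CPM, a log2 fold change of 2.21 ± 0.23 (SE, adjusted p = 9.7e-05). Ndufs7, a core subunit with an iron-sulphur cluster, went from 69.8 and 82.3 CPM to 273 and 273 CPM (1.87 ± 0.26). Ndufa2 went from 103 and 126 CPM to 416 and 419 CPM (1.89 ± 0.24). Ndufa8 went from 92.3 and 87.1 CPM to 303 and 308 CPM (1.79 ± 0.20). The other subunits ranged down to -0.49, and 33 of the 37 had a change above 0. The count of rises lay between 14 and 19 over 19 alternatives, which left out removal of the trends and the looser limits of no fold limit and an unadjusted p.

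Complex II, succinate dehydrogenase, gave a mixed picture. Its iron-sulphur subunit Sdhb rose from 153 and 137 CPM to 342 and 346 CPM (1.27 ± 0.17), which became 0.93, without a call, when the trends were removed. The flavoprotein subunit Sdha was at 146 and 162 CPM and at 152 and 156 CPM, and overlapped between the groups. The membrane anchors Sdhc (-0.39) and Sdhd (-0.51) were not called. The subunits of this complex were chosen for naming here after their values were seen, apart from Sdhb.

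Complexes III to V held further rises. Complex III with cytochrome c gave 4 rises of 10, with Uqcr10 going from 95.5 and 99.3 CPM to 363 and 363 CPM (1.93 ± 0.25) and Uqcrq from 449 and 494 CPM to 1552 and 1557 CPM (1.75 ± 0.28). Complex IV, cytochrome c oxidase, also gave 4 of 10. Its subunit Cox4i1 went from 291 and 322 CPM to 1022 and 1032 CPM (1.77 ± 0.24). Complex V, the ATP synthase, gave 5 rises and both of the falls among 13 subunits. Atp5o, of its stalk, went from 183 and 223 CPM to 698 and 709 CPM (1.82 ± 0.27). Atp5j, also of the stalk, went the other way, from 86.9 and 103 CPM to 29.1 and 30.4 CPM (-1.65 ± 0.22). Atp5g3, a gene for the ring subunit c, fell from 123 and 140 CPM to 60.0 and 58.3 CPM, while Atp5g1, another gene for the same protein, rose from 104 and 93.3 CPM to 300 and 297 CPM. Atp5g1, Atp5g3 and Atp5j were picked out after their values were seen, and all 3 kept their call and direction with the trends removed. The catalytic subunits Atp5a1 (-0.34) and Atp5b (0.12) were not called.

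**Figure D3:**
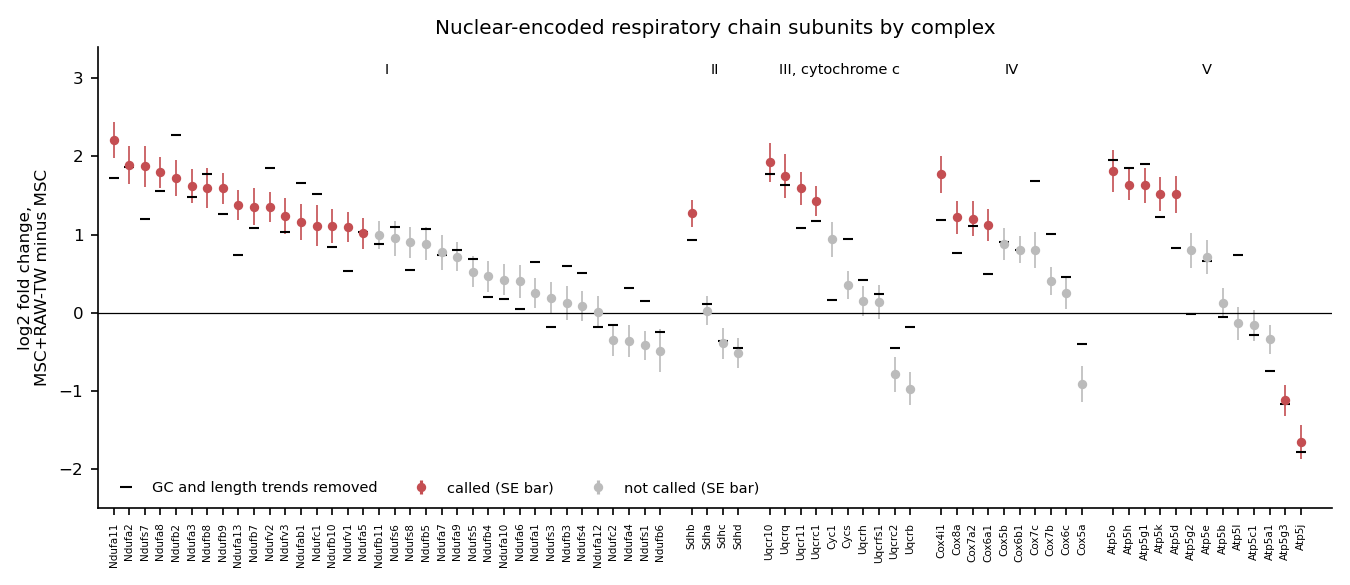
Log2 fold change of MSC+RAW-TW over MSC for 73 of the 74 nuclear-encoded respiratory chain subunits, grouped by complex (I to V) and ordered within it, with bars for the SE. Red points are called, and black dashes give the change with trends on GC content and length removed; the highest is Ndufa11 (2.21) and the lowest Atp5j (-1.65).

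Promoters of the subunits that rose are shown because nuclear respiratory chain genes are known as targets of the transcription factor NRF1. Of the 74 genes, 62 were matched by symbol in the RefSeq promoter table (build GRCm38.p6, from 250 bases before to 50 bases after the start of each gene). The 8-letter core of the NRF1 motif, GCATGCGC or its reverse complement GCGCATGC, was in 11 of these 62 windows (17.7%). It was in 7 of the 27 windows of subunits that rose and in 4 of the 35 windows of the other subunits. By comparison it was in 2.80% of all 27025 windows and in 4.84% of the 12220 windows of genes tested here. It was in 3.17% of the 63 windows of cytosolic ribosomal proteins and in 11.6% of the 69 windows of mitochondrial ribosomal proteins, lists that also held many rises. An ETS motif (CCGGAAGT or ACTTCCGG) was in 8.06% of the 62 windows, 7.45% of the windows of genes tested and 4.0% of all windows. A YY1 motif (AAGATGGC or GCCATCTT) was in 11.3%, 4.24% and 2.88%. Both strands were searched. The NRF1 core overlaps its own reverse complement and neither of the other motifs. A match is a description of letters and not evidence of binding. The 100 bases before the start are printed 5′ to 3′ on the strand of the gene for the 4 subunits that rose with the core in that stretch, with its letters in capitals. They lie upstream of Ndufa11 at chr17:56717662-56717761 on the plus strand, of Ndufa8 at chr2:36049339-36049438 on the minus strand, of Atp5k at chr5:108434400-108434499 on the minus strand and of Sdhb at chr4:140961171-140961270 on the plus strand.
Ndufa11: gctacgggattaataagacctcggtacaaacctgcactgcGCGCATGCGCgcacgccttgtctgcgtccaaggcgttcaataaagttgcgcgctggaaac
Ndufa8: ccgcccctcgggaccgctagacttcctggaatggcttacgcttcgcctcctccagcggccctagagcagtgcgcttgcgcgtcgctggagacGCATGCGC
Atp5k: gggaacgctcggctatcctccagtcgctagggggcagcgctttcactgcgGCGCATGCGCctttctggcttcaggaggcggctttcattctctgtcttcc
Sdhb: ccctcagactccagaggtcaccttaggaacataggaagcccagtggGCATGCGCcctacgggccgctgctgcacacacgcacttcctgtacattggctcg

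In Ndufa11 and Atp5k the core occurs on both strands at once, as a 10-letter palindrome. Their changes were 2.21 and 1.52, those of Ndufa8 and Sdhb 1.79 and 1.27.

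Of the 13 transcripts of mitochondrial DNA in the list, none rose, 6 fell (46.2%, against 9.59% of all genes) and 7 were not called, with a median change of -1.12. Counts on the mitochondrial chromosome made up 0.53% and 0.69% of the MSC libraries and 0.17% and 0.16% of the MSC+RAW-TW libraries. The complex I subunit mt-Nd1 went from 493 and 716 CPM to 186 and 175 CPM, a log2 fold change of -1.71 ± 0.24 (SE, adjusted p = 0.00028). The cytochrome oxidase subunit mt-Co1 went from 1166 and 1498 CPM to 426 and 422 CPM (-1.62 ± 0.23). Both were lower in MSC+RAW-TW than in either MSC library, by a margin wider than the distance between the MSC libraries. mt-Nd4 was at 426 and 650 CPM and at 240 and 234 CPM (-1.15 ± 0.25), and mt-Co3 at 39.9 and 74.6 CPM and at 22.3 and 21.8 CPM (-1.34 ± 0.29). Their calls rested on MSC 2, without which the changes were -0.82 and -0.83. Leaving out MSC 2 left 3 falls and leaving out MSC 1 gave 9. These transcripts are poor in GC, with a median of 37.1%. With the trends on GC and length removed none was called, the median was -0.09, and mt-Nd6 turned from -1.03 to 0.30. Mitochondrial 12S ribosomal RNA, mt-Rnr1, stood at 414 and 558 CPM in MSC and at 71.9 and 71.7 CPM in MSC+RAW-TW. It kept its call with the trends removed, at -1.59. The share of counts on ribosomal RNA genes, mitochondrial ones such as mt-Rnr1 included, was 4.83% and 4.14% in MSC and 1.93% and 1.91% in MSC+RAW-TW. Whether mt-Rnr1 fell apart from the other ribosomal RNA was not tested.

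Genes of ribosomal proteins held many rises, and those of the proteasome fewer. These lists were added after the values were seen. Of 82 cytosolic ribosomal proteins tested, 41 rose (50%, against 6.80% of all genes) and 3 fell, with a median change of 0.99. Removal of the trends gave 29 rises and 2 falls, and a median of 0.85. Their median exon length was 1775.5 bases, also within the shortest group of genes by length, which kept a median of 0.39 after removal. Their summed level went from 53455 and 53001 CPM to 111040 and 109320 CPM. Rpl18 went from 714 and 601 CPM to 2779 and 2734 CPM (2.1), and Rpl13 from 792 and 893 CPM to 3472 and 3396 CPM (2.06). Rps27a, which encodes a fusion of ubiquitin and a ribosomal protein, fell from 844 and 790 CPM to 353 and 393 CPM (-1.11), without a call when the trends were removed (-0.74). Of 77 mitochondrial ribosomal proteins, 25 rose (32.5%) and 1 fell, with a median of 0.72. Mrpl21 stood at 39.2 and 43.6 CPM and at 163 and 163 CPM (2.0), whereas Mrpl1 fell from 7.08 and 9.93 CPM to 2.39 and 1.96 CPM (-1.92). Of 38 proteasome subunits, 6 rose (15.8%) and 1 fell, with a median of 0.52, and 31 were not called. The share that rose was close to that of all genes at 50 CPM and above, 575 of 3701. The largest rise was that of Psmb6, a catalytic subunit of the standard proteasome, from 183 and 159 CPM to 663 and 663 CPM (1.98).

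Glycolysis, which breaks glucose down to pyruvate, gave 2 rises (7.69%, against 6.80% of all genes) and 1 fall (3.85%, against 9.59%) among 26 genes, with a median of 0.48, or 0.16 with the trends removed. The aldolase gene Aldoa went from 1166 and 1094 CPM to 3703 and 3692 CPM, a log2 fold change of 1.74 ± 0.18 (SE, adjusted p = 9.3e-05). Its paralog Aldoc went from 17.8 and 18.5 CPM to 44.6 and 43.2 CPM (1.30 ± 0.20). Aldoa and Aldoc kept their calls with the trends removed. The lactate transporter gene Slc16a1 fell from 9.04 and 10.8 CPM to 3.64 and 3.49 CPM (-1.44 ± 0.26), and was not called with the trends removed (-0.93). Lactate dehydrogenase Ldha was at 576 and 602 CPM and at 1003 and 991 CPM (0.79, not called), and hexokinase Hk2 at 97.2 and 90.0 CPM and at 78.4 and 75.8 CPM (-0.25, not called).

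The tricarboxylic acid cycle, which feeds the respiratory chain, gave 2 rises and 2 falls (9.09% each, against 6.80% and 9.59% of all genes) among 22 genes, with a median of 0.09. Removal of the trends gave 4 rises and 1 fall, and 1 of the 4 calls held. Suclg1, a subunit of the enzyme that makes succinate, rose from 110 and 111 CPM to 248 and 249 CPM (1.20 ± 0.18). Dld, a dehydrogenase subunit shared by several complexes, fell from 41.4 and 54.9 CPM to 15.3 and 16.6 CPM (-1.57 ± 0.23). Idh1, the cytosolic isocitrate dehydrogenase, fell from 109 and 132 CPM to 53.9 and 56.4 CPM (-1.10 ± 0.20), and was not called without MSC 2 (-0.96). Suclg1 kept its call with the trends removed, and Dld (-0.94) and Idh1 (-0.72) did not. Of 13 genes of succinate metabolism and transport, 3 rose and 1 fell, among them the mitochondrial carrier gene Slc25a10, from 31.0 and 27.6 CPM to 59.4 and 57.9 CPM (1.03 ± 0.19). Among genes of mitochondrial fusion, fission and mitophagy, 2 of 18 rose and 1 fell. Opa1, which fuses inner membranes, fell from 45.8 and 49.7 CPM to 21.1 and 22.5 CPM (-1.11 ± 0.22), while Fis1 (1.05) and Mief2 (1.24), which act in fission, rose. Of 14 genes of mitochondrial transport and transfer, Rhot2, a GTPase that links mitochondria to motors, rose from 16.3 and 13.5 CPM to 29.6 and 33.0 CPM (1.09 ± 0.24). Slc25a10 (0.31), Opa1 (-0.44), Fis1 (0.66), Mief2 (0.63) and Rhot2 (0.70) were not called with the trends removed, nor Slc25a10 (0.95) and Rhot2 (0.96) without MSC 2. Fis1, Slc25a10 (0.98) and Rhot2 (0.98) were just short of the limit without MSC+RAW-TW 1 or, for Rhot2, MSC+RAW-TW 2, and Slc25a10 (0.99) also without MSC+RAW-LPS-TW 1.

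Of 20 antioxidant genes, 3 rose and 3 fell (15% each, against 6.80% and 9.59% of all genes), and with the trends removed 3 rose and none fell. Sod1, the cytosolic superoxide dismutase, went from 222 and 241 CPM to 695 and 703 CPM, a log2 fold change of 1.62 ± 0.19 (SE, adjusted p = 0.00013). Sod3, its secreted relative, went from 102 and 93.2 CPM to 272 and 280 CPM (1.53 ± 0.24), and the glutathione peroxidase gene Gpx1 from 355 and 359 CPM to 982 and 984 CPM (1.49 ± 0.20). Nfe2l2, the gene of the transcription factor NRF2, fell from 90.5 and 109 CPM to 40.6 and 47.9 CPM (-1.15 ± 0.20). The NRF2 targets Txn1 and Slc7a11, picked out after their values were seen, fell by 1.12 and 1.13 on the log2 scale, the latter without a call when MSC 2 was left out (-0.99). With the trends removed Sod1 and Sod3 were called, and Gpx1, Nfe2l2, Txn1 and Slc7a11 were not. Of 7 NADPH oxidase genes tested, Cyba (1.42) and Rac2 (1.25) rose, and neither was called with the trends removed (0.88 and 0.95). The catalytic subunit gene Nox4, picked out after its values were seen, had 41 and 34 counts in MSC and none in either MSC+RAW-TW library, at least 23.1-fold lower against a floor of 3 counts over both.

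Among lipid genes, Apoe, the carrier protein that macrophages secrete, rose from 2626 and 2588 CPM to 6842 and 6872 CPM (1.42 ± 0.24). Soat1, which esterifies cholesterol, fell from 155 and 155 CPM to 62.0 and 61.3 CPM (-1.30 ± 0.21), and Scd1, the desaturase, from 56.5 and 67.9 CPM to 24.7 and 25.3 CPM (-1.29 ± 0.21). Of 22 sterol synthesis genes, Mvk (1.59) and Mvd (1.59) rose and Nsdhl (-1.54) fell, and 4 rose without MSC 1. Scd1, Mvk and Nsdhl were called with the trends removed as well, and Apoe (0.72), Soat1 (-0.61) and Mvd (0.92) were not. Of 10 iron genes, the transferrin receptor Tfrc (-1.45) and the exporter Slc40a1 (-1.18) fell. Neither was called with the trends removed (-0.59 and -0.36). Of 16 hypoxia genes, Arnt (-1.07) and Adm (-1.05) fell, the call of Adm (-0.96 without it) and that of Slc40a1 (-0.88 without it) resting on MSC 2. Adm was called with the trends removed and Arnt (-0.71) was not. Hif1a was at 104 and 137 CPM and at 62.3 and 61.4 CPM (-0.93, not called).

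Of 20 genes of inflammatory cytokines and enzymes, 3 rose (15%, against 6.80% of all genes) and 2 fell (10%, against 9.59%), with a median of 0.00. Tnf, which encodes tumour necrosis factor, went from 65.2 and 70.8 CPM to 177 and 187 CPM, a log2 fold change of 1.45 ± 0.18 (SE, adjusted p = 0.00019). Il6 rose as well, on a scarce transcript, from 0.53 and 0.38 CPM to 1.71 and 1.82 CPM (1.93 ± 0.28). Il18 fell from 7.33 and 12.02 CPM to 1.69 and 2.91 CPM (-2.07 ± 0.38). The calls of these genes held with the trends removed. Il1b was at 18.9 and 15.8 CPM and at 21.7 and 22.3 CPM (0.36, adjusted p = 0.20), and Il10 at 8.04 and 6.32 CPM and at 11.1 and 11.6 CPM (0.68, not called). Nos2, the inducible nitric oxide synthase, was at 2.22 and 1.35 CPM and at 1.22 and 0.81 CPM (-0.79, not called).

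Of 22 chemokine genes, 2 rose (9.09%, against 6.80% of all genes) and 4 fell (18.2%, against 9.59%). Besides Ccl5, Ccl8 rose, from 54.8 and 52.6 CPM to 113 and 117 CPM (1.12 ± 0.18). The neutrophil attractants Cxcl3 and Cxcl1 fell, Cxcl3 from 25.1 and 29.6 CPM to 6.35 and 5.71 CPM (-2.15 ± 0.22, adjusted p = 8.2e-05) and Cxcl1 from 12.3 and 21.3 CPM to 3.91 and 3.95 CPM (-2.06 ± 0.30). Ccl2, which draws monocytes, fell from 195 and 296 CPM to 94.8 and 96.6 CPM (-1.33 ± 0.24). Ccl5, Ccl8, Cxcl3 and Cxcl1 kept their calls with the trends removed and Ccl2 (-0.86) did not. Ccl8 was picked out after its values were seen. The homing factor Cxcl12 was at 328 and 354 CPM and at 285 and 282 CPM (-0.24, not called).

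**Figure D4:**
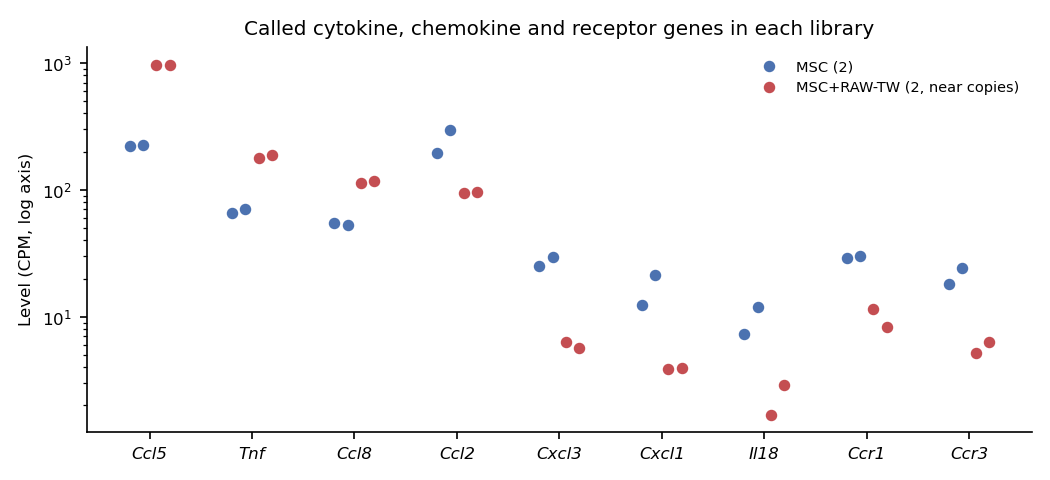
Level in CPM (log axis) of 9 called cytokine, chemokine and receptor genes in the 2 MSC and 2 MSC+RAW-TW libraries, 1 point per library. Ccl5, Tnf and Ccl8 lie higher in MSC+RAW-TW and the other 6 genes lower, without overlap between the groups, as in 78.4% of all genes tested.

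Chemokine receptors had the lowest median of the immune lists, cell type marker lists aside, -1.06, with 5 falls (50%, against 9.59% of all genes) and no rise among 10 tested. Ccr3, the eotaxin receptor, went from 18.2 and 24.3 CPM to 5.20 and 6.35 CPM (-1.86 ± 0.30). Ccr1 went from 29.1 and 30.2 CPM to 11.5 and 8.34 CPM (-1.53 ± 0.22). Both receptors bind Ccl5, which moved the other way. Cxcr6, picked out after its values were seen, had 59 and 24 counts in MSC and none in either MSC+RAW-TW library, at least 24.1-fold lower against a floor of 3 counts over both. With the trends removed the median was -0.63, and 3 of the 5 falls held, with Ccr1 (-0.83) among those not called.

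Interferon-stimulated genes gave 4 rises (13.3%, against 6.80% of all genes) and 5 falls (16.7%, against 9.59%) among 30, with a median of 0.00, and 3 rises and no fall with the trends removed. Without MSC 2, 3 of these genes fell. Irf7, the transcription factor that amplifies interferon production, went from 595 and 595 CPM to 1854 and 1838 CPM, a log2 fold change of 1.66 ± 0.21 (SE, adjusted p = 0.00020). Oasl1 went from 106 and 106 CPM to 301 and 298 CPM (1.53 ± 0.22), and Ifi35 from 54.0 and 60.9 CPM to 141 and 130 CPM (1.27 ± 0.20). Ifit2, which binds foreign RNA, went down from 84.5 and 104 CPM to 33.2 and 32.9 CPM (-1.49 ± 0.23). With the trends removed Irf7 kept its call and Oasl1 (0.99), Ifi35 (0.90) and Ifit2 (-0.94) did not. Ifitm3, a membrane protein that blocks viral entry and was among the 10 genes of highest level, stood at 3216 and 2982 CPM in MSC and at 7558 and 7292 CPM in MSC+RAW-TW (1.29 ± 0.23). Of 12 interferon-inducible GTPases, Irgm1 fell from 74.9 and 95.0 CPM to 30.1 and 31.2 CPM (-1.45 ± 0.25).

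Of 16 Toll-like receptors and adaptors, which sense microbes, none rose and 3 fell (18.8%, against 9.59% of all genes), or 1 with the trends removed and 5 without MSC+RAW-LPS-TW 1. Among them were Tlr8, from 22.1 and 27.4 CPM to 8.55 and 7.53 CPM (-1.58 ± 0.32), and Tlr3, from 16.0 and 17.3 CPM to 6.84 and 6.95 CPM (-1.25 ± 0.24). Of 13 inflammasome genes, 4 fell (30.8%) and 1 rose (7.69%), and with the trends removed 2 fell and none rose. Casp1, the protease that matures interleukin-1β and interleukin-18, went from 36.6 and 45.1 CPM to 13.0 and 11.3 CPM (-1.71 ± 0.22). The pore-forming Gsdmd rose from 60.5 and 53.1 CPM to 115 and 114 CPM (1.04 ± 0.18), and its call rested on MSC 2 (0.95 without it). With the trends removed Casp1 was called and Tlr8, Tlr3 and Gsdmd were not. Of 16 NF-kB genes, the subunit Rel fell from 18.7 and 21.4 CPM to 7.60 and 6.23 CPM (-1.49 ± 0.24), and the inhibitor gene Nfkbib rose from 18.4 and 20.1 CPM to 48.6 and 48.3 CPM (1.36 ± 0.21). No NF-kB gene was called with the trends removed, where Rel was at -0.77 and Nfkbib at 0.69.

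Antigen presentation and phagocyte genes were called in both directions. Of 12 genes of MHC class I presentation, 2 rose and 1 fell, and none was called with the trends removed. Of 12 genes of MHC class II presentation, 5 rose (41.7%, against 6.80% of all genes) and 1 fell, which became 1 rise and 1 fall with the trends removed, and 3 rises and 1 fall without MSC 2. The invariant chain Cd74 went from 146 and 106 CPM to 307 and 300 CPM (1.29 ± 0.20, adjusted p = 0.00045) and H2-DMa from 14.1 and 13.8 CPM to 34.8 and 33.2 CPM (1.31 ± 0.22). Ciita, their transactivator, picked out after its values were seen, had 27 and 7 counts in MSC and none in either MSC+RAW-TW library, at least 9.53-fold lower against a floor of 3 counts over both. Its call was lost without MSC 1 or either MSC+RAW-TW library. Of 20 complement genes, 4 rose (20%) and 2 fell (10%), or 2 and 1 with the trends removed and 5 and 1 without MSC 2. C1qb went from 1272 and 1174 CPM to 3524 and 3524 CPM (1.55 ± 0.21), C1qa from 761 and 607 CPM to 1590 and 1549 CPM (1.23 ± 0.21) and the properdin gene Cfp from 858 and 892 CPM to 1925 and 1924 CPM (1.16 ± 0.20). Of 6 genes of IgG receptors and their chain, 2 rose and none fell. Fcgr4 went from 39.2 and 40.2 CPM to 106 and 97.9 CPM (1.39 ± 0.18). Fcgrt, the neonatal Fc receptor, went from 70.0 and 65.3 CPM to 136 and 132 CPM (1.02 ± 0.18), close to the limit, and was not called with the trends removed (0.50) or without MSC 2 (0.97), MSC+RAW-TW 1 (0.96) or MSC+RAW-LPS-TW 1 (0.98). Cd74, H2-DMa, C1qa and Cfp were not called with the trends removed, while C1qb and Fcgr4 were.

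Several of these genes are expressed by macrophages, and the macrophage marker list moved with them in part. Of its 20 genes, 4 rose (20%) and none fell, or 2 and none with the trends removed. Tyrobp, an adaptor of activating receptors, went from 676 and 629 CPM to 2050 and 2015 CPM (1.67 ± 0.19), and Spi1, the transcription factor PU.1, from 147 and 146 CPM to 310 and 309 CPM (1.10 ± 0.18). Tyrobp was called with the trends removed and Spi1 (0.44) was not. Adgre1, which encodes F4/80, was at 511 and 585 CPM and at 332 and 338 CPM (-0.68, not called), and Csf1r at 1160 and 1062 CPM and at 1925 and 1913 CPM (0.82, not called). No macrophage marker was at 0 in any library. The part of macrophage RNA in the changes of immune genes was not tested. Clec4n, the lectin Dectin-2, rose from 841 and 836 CPM to 2607 and 2613 CPM (1.66 ± 0.23) and Marco, a scavenger receptor, from 139 and 128 CPM to 342 and 340 CPM (1.38 ± 0.19), of which Marco (0.96) was not called with the trends removed. Msr1, another scavenger receptor, fell from 1118 and 1280 CPM to 549 and 551 CPM (-1.10 ± 0.20), and its change was -0.13 with the trends removed, with no call either when MSC 2 was left out.

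Of 20 stromal markers, 3 rose and 3 fell (15% each, against 6.80% and 9.59% of all genes), with a median of -0.41. With the trends removed 1 rose and 1 fell, with a median of -0.10. The rise was a call that held, and none of the 3 falls held. Prrx1, a transcription factor of limb mesenchyme, fell from 77.4 and 88.3 CPM to 32.9 and 32.3 CPM, a log2 fold change of -1.32 ± 0.20 (SE, adjusted p = 0.00042), and the growth factor receptor Pdgfra from 73.8 and 81.0 CPM to 35.7 and 36.9 CPM (-1.07 ± 0.20). Ly6a, which encodes Sca-1, rose from 200 and 229 CPM to 526 and 502 CPM (1.29 ± 0.23), and Eng, an endoglin co-receptor of TGF-beta, from 63.9 and 61.7 CPM to 127 and 131 CPM (1.06 ± 0.18). With the trends removed Ly6a kept its call and Prrx1 (-0.56), Pdgfra (-0.66) and Eng (0.52) did not. S100a4, of the fibroblast list, rose from 384 and 421 CPM to 1465 and 1444 CPM (1.88 ± 0.23), with a call in both settings.

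Of 17 osteoblast genes tested, 4 rose (23.5%, against 6.80% of all genes) and 1 fell (5.88%, against 9.59%), with a median of 0.05, and with the trends removed 1 rose and none fell. Atf4, a transcription factor of osteoblasts and of the integrated stress response, rose from 226 and 278 CPM to 582 and 581 CPM (1.23 ± 0.19). Pth1r, the parathyroid hormone receptor, rose from 3.57 and 3.06 CPM to 10.4 and 7.82 CPM (1.5 ± 0.36). Tnfrsf11b, which encodes osteoprotegerin, fell from 11.6 and 17.6 CPM to 8.09 and 5.83 CPM (-1.02 ± 0.28), and its change was -0.70 without MSC 2 and -0.85 without MSC+RAW-TW 2, with no call. Atf4 (0.74), Pth1r (0.77) and Tnfrsf11b (-0.57) were not called with the trends removed. The main bone transcription factors showed no call. Runx2 was at 11.9 and 14.0 CPM and at 10.5 and 9.98 CPM (-0.31), and Sp7 at 3.88 and 5.23 CPM and at 6.13 and 5.83 CPM (0.43). Alkaline phosphatase Alpl was at 23.2 and 25.7 CPM and at 32.2 and 31.5 CPM (0.41). The fat lineage genes gave no call among 14, with Pparg at 18.8 and 18.3 CPM and at 21.5 and 19.97 CPM (0.19), Cebpa at 99.8 and 67.3 CPM and at 119 and 123 CPM (0.56) and Fabp4 at 90.5 and 101 CPM and at 62.2 and 62.3 CPM (-0.60).

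Few matrix and growth factor genes were called. Of 30 collagens and matrix genes none rose and 2 fell, among them the proteoglycan gene Ogn, from 32.3 and 61.9 CPM to 17.8 and 16.7 CPM (-1.42 ± 0.32), a call that rested on MSC 2 (-0.87 without it) and was lost with the trends removed (-0.47). No matrix metalloproteinase or inhibitor of 16 was called. Timp1 was at 774 and 700 CPM and at 1435 and 1443 CPM (0.99) and Timp2 at 830 and 775 CPM and at 1574 and 1564 CPM (0.99), just short of the limit. In the TGF-beta and BMP pathway 1 of 20 genes rose and 2 fell. The receptor gene Bmpr1a fell from 9.43 and 12.3 CPM to 3.98 and 3.52 CPM (-1.5 ± 0.30) and the BMP inhibitor Grem1 from 61.9 and 81.4 CPM to 30.8 and 28.9 CPM (-1.23 ± 0.21). Of 15 actin contractile genes 4 rose (26.7%, against 6.80% of all genes) and none fell, with a median of 0.64. Tpm2, a tropomyosin, went from 318 and 340 CPM to 790 and 789 CPM (1.29 ± 0.21) and Myl9, a myosin light chain, from 209 and 223 CPM to 471 and 470 CPM (1.15 ± 0.20). The others were Cnn2 (1.03) and Ccn1 (1.13). None of these 4 calls held with the trends removed, where the median of the list was 0.39, nor did those of Bmpr1a and Grem1. The call of Cnn2 was also lost without MSC 2 (0.96), MSC+RAW-TW 1 (0.98) or MSC+RAW-LPS-TW 1 (0.99).

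The integrated stress response, which cells use when protein synthesis or amino acid supply is disturbed, gave 4 rises (25%, against 6.80% of all genes) and no fall among 16. Besides Atf4, Atf5 went from 74.7 and 80.6 CPM to 159 and 168 CPM (1.10 ± 0.22), Gdf15 from 5.55 and 8.08 CPM to 16.9 and 15.4 CPM (1.28 ± 0.33) and Trib3 from 7.67 and 8.79 CPM to 17.8 and 18.4 CPM (1.16 ± 0.24). None of the 4 was called with the trends removed, where the median of the list was -0.02. The endoplasmic reticulum factor Manf rose from 380 and 356 CPM to 879 and 899 CPM (1.30 ± 0.18), in both settings. Of 16 AP-1 and immediate early genes 5 rose, or 3 without MSC 1, where Egr1 (0.68) was not called, with Ier3 going from 63.6 and 67.9 CPM to 197 and 182 CPM (1.56 ± 0.20) and Jund from 26.2 and 25.4 CPM to 77.6 and 73.4 CPM (1.58 ± 0.24). Removal of the trends left 2 rises and gave 1 fall in this list, the median went from 0.49 to 0.03, and Ier3 was called while Jund (0.70) was not. In proliferation the calls went both ways. Of 30 cell cycle genes 1 rose, Mcm5 (1.06), and 3 fell, among them the sliding clamp gene Pcna, from 100 and 146 CPM to 51.6 and 53.5 CPM (-1.20 ± 0.23), which was not called without MSC 2 (-0.91). The call of Mcm5 was lost without MSC+RAW-TW 1 (0.99), and none of the 3 falls was called without MSC 2. None of the 4 calls held with the trends removed, where Mcm5 was at 0.85 and Pcna at -0.93.

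Further lists held few calls. Of 25 lysosomal genes 4 rose (16%) and 2 fell (8%). There were 3 rises and 1 fall without MSC 2, 4 and 3 without MSC+RAW-TW 1, and 2 and 1 with the trends removed. The cathepsin gene Ctsz went from 723 and 666 CPM to 1920 and 1883 CPM (1.48 ± 0.22) and the regulator Tfeb from 10.5 and 11.1 CPM to 27.9 and 26.5 CPM (1.36 ± 0.23). Of 11 IGF genes, Igfbp4 rose from 764 and 668 CPM to 1450 and 1454 CPM (1.05 ± 0.20), a call that rested on MSC 2 (0.95 without it), and Igfbp3, picked out after its values were seen, fell from 6.53 and 5.82 CPM to 1.86 and 1.59 CPM (-1.81 ± 0.26). Of 15 genes of the BCL2 family and cell death, the survival gene Bcl2a1d (-1.24) fell and the death gene Bbc3 (1.08) rose, and not without MSC+RAW-TW 2 (0.98). Of 19 Wnt genes, the receptor Fzd7 (-1.17) fell, and not without MSC 2 (-0.97). Igfbp3 and Fzd7 were called with the trends removed, and Ctsz (0.94), Tfeb (0.70), Igfbp4 (0.66), Bcl2a1d (-0.75) and Bbc3 (0.20) were not. Of the 23 genes in the primer table of the study, 21 were tested. Aldoc, Tnf and Il6 rose and none fell, and the pluripotency genes Pou5f1 and Sox2, with no count or at most 0.17 CPM in each library, were not tested.

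The 10 named protein-coding genes of highest level included macrophage, iron, actin and acute-phase genes. Saa3, an acute-phase protein of macrophages and stromal cells, rose from 3454 and 3442 CPM to 7500 and 7457 CPM (1.14 ± 0.20), in both settings. The ferritin heavy chain Fth1 was at 9177 and 11326 CPM and at 15127 and 15195 CPM (0.59, not called). Actb, which encodes an actin and is often used as a reference, was at 10699 and 10116 CPM and at 18660 and 18482 CPM (0.86, not called). Tmsb4x, which binds free actin, was at 6041 and 5734 CPM and at 8435 and 8557 CPM (0.56, not called).

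**Figure D5:**
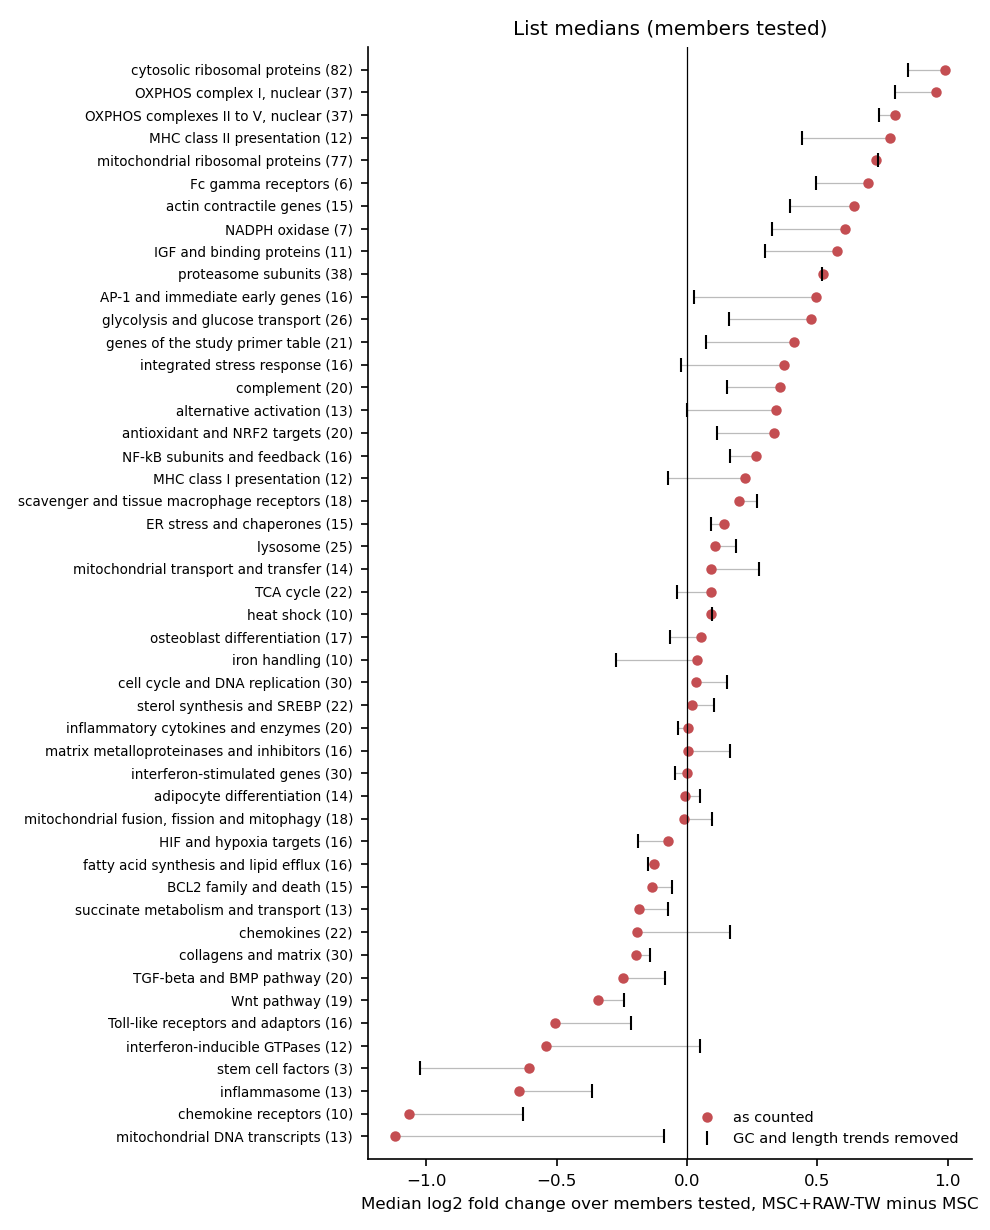
Median log2 fold change of MSC+RAW-TW over MSC for each gene list, the cell type marker lists left out, with the number of members tested in brackets, as counted (red points) and with trends on GC content and length removed (black marks). Cytosolic ribosomal proteins (0.99) and complex I (0.95) stand highest and mitochondrial DNA transcripts lowest (-1.12, and -0.09 with the trends removed).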

How the data were processed

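Bulk poly(A) RNA-seq of 6 MSC culture libraries was used. The authors prepared libraries with a directional kit, trimmed reads with Trim Galore 0.6.7, aligned them to GRCm38 with HISAT2 2.1.0 and counted them per gene with featureCounts 2.0.1, per the labels. The values as deposited are unnormalized, unfiltered counts for each gene. The exon length of each gene, in bases, was deposited beside the counts. Whether strand was used, and whether a read pair counted once, is not given in the sources used here. Between 60.0% and 71.4% of counts from 1 to 20 were even, so counts are not independent molecules, and reads of overlapping and antisense genes may be shared.

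Columns were matched to groups by name. Both MSC+RAW-TW columns carry the same name, MR-1, so their replicate numbers only name them. Their counts were summed. Genes kept by filterByExpr were tested with edgeR 4.0.16 (TMM, glmQLFit and glmQLFTest, two-sided, Benjamini-Hochberg adjustment over all genes tested) in R 4.3.3, over 5 samples. Trends on GC content and length were removed in an alternative fit by lowess offsets (span 0.3) per sample. GC content was that of the longest GENCODE vM21 transcript of each gene, and length was the deposited exon length. The annotation matched 55227 of 55487 identifiers. On simulated counts of 19108 genes this test recovered 89 of 100 genes changed by 2 and 85 of 100 changed by 1.5 on the log2 scale. It also called 9 genes that had not been changed. The changed genes were not scarce ones, and the lone sample was drawn with the spread of the others. No trend on GC or length was put in. Recovery of scarce genes, or under such a trend, was therefore not tested. Alternatives included DESeq2 1.42.0, and the closing section gives their effect. No list was tested as a set.

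The comparison, its members and the gene lists were chosen with earlier results of these data known. Named genes are the 12 largest rises and 12 largest falls among called genes with a gene name (no Gm number or Rik clone), a mean of at least 5 CPM and no overlap between groups. Added to these are up to 4 called members of each list with the largest change and that mean, or, with none called, the 2 of highest level, the genes of the study's primer table, and the 10 named protein-coding genes of highest level. Genes named outside this rule were chosen after their values were seen. Besides those marked in the text, these are Adgre1, Atp5a1, Atp5b, Atp5k, Csf1r, Cxcl12, Lamp2, mt-Nd6 and the members of the ribosomal and proteasome lists. The bone marrow macrophage libraries of the series were not used here, and a few genes of the lists are not reported here.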

Additional observations from a re-analysis of the deposited data

How the results depend on the processing

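The 3360 calls became 5862 without the fold limit, 2164 with trends on GC content and length removed and 1953 with a mean of at least 5 CPM required, an alternative chosen after seeing the data. Rises numbered 2836 without the fold limit. Falls numbered 3026 without the fold limit, 1294 with a mean of at least 1 CPM, 1071 with the trends removed and 942 with a mean of at least 5 CPM. Leaving out a library gave 2603 to 4231 calls, 1244 to 1685 of them rises and 1359 to 2629 falls. DESeq2 called 3354 genes, of which 3071 were shared, and RLE scaling 3404. Rises made up 41.5% of the calls, and 50.5% with the trends removed, 50.3% at 1 CPM and 51.8% at 5 CPM. Removing the trends turned Lamp2 (from -1.06 to 0.014) and mt-Nd6 (from -1.03 to 0.30), neither of them still called. It also ended 135 further calls among the 280 of listed or named genes. Leaving out MSC 2 ended 45, and other libraries between 1 and 18. Of the 280 calls, 127 stayed the same under all alternatives. With the MSC+RAW-TW libraries as 2 replicates there were 4574 calls, and 8 of the 280 ended. Within that fit, the library set in the column headers, which holds 1 library of each group per set, entered as a term chosen after seeing the data, gave 4489 calls and ended 8. No paired analysis was possible because both MSC+RAW-TW columns carry the same replicate number, other than this fit by library set. No interval was made for the lone MSC+RAW-TW sample, so its own spread was not measured. Halving the counts gave 3358 calls, and thinning them to the smallest sample gave 2816. The effect of depth was not split by level, and genes under 1 CPM made up 6970 of those tested.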

Other observations

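Called transcripts of several classes outside protein-coding genes were mostly falls, while most members of each class were not called. Of 1208 tested genes of the GENCODE class TEC, which awaits experimental evidence, 263 fell and 6 rose, with a median change of -1.60. Of 158 sense intronic transcripts 32 fell and 1 rose, with a median of -1.61, and of 1055 antisense transcripts 137 fell and 28 rose. Of 707 lincRNA genes 62 fell and 30 rose, with a median of -0.15. Both shares lay below the 9.59% and 6.80% of all genes tested. By comparison, 1230 of 14413 protein-coding genes fell and 1188 rose. The classes were not matched on level. Among the 6970 tested genes under 1 CPM, whatever their class, 767 fell and 76 rose, with a median of -0.99. The part of level in the contrast between classes was not tested.

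Processed pseudogenes gave 100 rises and 132 falls among 1814, shares below the 6.80% and 9.59% of all genes tested. The median change of this class was -0.32.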
